A study of Homo sapiens with 8 samples.

Results

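The RNA-seq libraries of the multiple myeloma (MM) cell line JJN3 treated with THZ1 were set against the libraries labelled as the MM line H929 with the same treatment, 4 of the 8 libraries of the series. They were chosen by line and treatment from the sample labels, 2 libraries of JJN3 THZ1 and 2 of H929 THZ1. Both groups received THZ1, a covalent inhibitor of the transcription kinase CDK7, at 50 nM for 24 h, and the remaining libraries received the vehicle DMSO for the same time. JJN3 carries t(14;16), which places MAF under immunoglobulin control, and H929 carries t(4;14), which does so for FGFR3 and WHSC1. Each group is a single established line, so a difference between them is a difference between 2 lines and not between MM subtypes. The labels do not say whether the numbered libraries came from separate cultures, and p-values therefore measure the spread between libraries, which may be technical.

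MM is a cancer of plasma cells, the antibody-secreting end stage of the B-cell lineage. Immunoglobulin translocations of MM switch on an oncogene that differs between patients, and D-type cyclins, which drive the entry into the cell cycle, are raised downstream of most of them. CDK7 is a subunit of the transcription factor TFIIH and phosphorylates the tail of RNA polymerase II, and its inhibition reaches short-lived transcripts from strong enhancers first.

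The question was which gene programs set these lines apart while both carried the inhibitor. The authors deposited a raw count per Ensembl gene, and the total counts of the 4 libraries lay between 17476443 and 18483627. Across genes, which are not independent replicates, log2 CPM (CPM being counts scaled to the library total) correlated at 0.993 and 0.996 within the lines and at 0.722 to 0.730 between them. All 4 libraries used kappa light chains, since at most 0.391% of their light chain V counts fell on lambda genes. The libraries labelled H929 DMSO stood apart, with at most 2.04% of these counts on kappa genes, so they served as no control here. A baseline difference between the lines and a response of H929 to THZ1 can therefore not be told apart, whereas each JJN3 value can be read beside JJN3 DMSO.

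The translocation genes followed the labels. FGFR3, a receptor tyrosine kinase (chr4:1795020-1810599, GRCh37), had 1 and 0 counts in the JJN3 libraries and 14117 and 13411 in the H929 libraries. WHSC1, a histone methyltransferase gene beside it (chr4:1873120-1983934), had 2835 and 3231 counts in JJN3 and 15702 and 16276 in H929. MAF, a transcription factor (chr16:79619740-79634634), had 8873 and 10362 counts in JJN3 and 2729 and 2942 in H929, so the t(4;14) line expressed it too. With 2 libraries per line, the groups did not overlap for any of these genes. The share of all genes without overlap was not taken, so this says nothing particular about them, and 66.5% of all genes tested were called. In the quasi-likelihood test of edgeR, with p adjusted after Benjamini and Hochberg over all genes tested, the log2 fold change of JJN3 over H929 (± SE here and below) was 1.88 ± 0.09 for MAF (adjusted p = 4.7e-09) and -2.28 ± 0.09 for WHSC1 (adjusted p = 1.1e-09). FGFR3 was higher in H929 by a ratio of 25307 (95% counting interval 4542 to 999593).

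Among the 24 plasma cell genes listed, 23 had more than 3 counts in some library and 19 passed the filter on low counts. The plasma cell transcription factors IRF4, PRDM1 and XBP1 had 3883 counts or more in every library, whereas other members such as SLAMF7 were far lower in JJN3. Of 17 T and NK cell markers, 10 had more than 3 counts in some library, with a summed level of 97.3 to 104 CPM in JJN3 and 55.7 CPM in both H929 libraries. CD247, a T-cell receptor chain, had 1442 and 1616 counts in JJN3 and 4 and 2 in H929, while CD3E had 75 and 50 in JJN3 and 640 and 650 in H929, and CD4, TRBC1 and KLRD1 were at 0 throughout. Stromal and epithelial markers summed to 88.7 and 109 CPM in JJN3 and to 1.86 and 1.90 CPM in H929, most of it from EPCAM (1373 and 1195 against 1 and 6 counts) and CDH1, whereas KRT19 was at 0. Myeloid markers summed to at most 6.24 CPM and erythroid and megakaryocyte markers to at most 1.95 CPM in any library. The part of other cells in the differences below was not tested.

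Of 14981 genes that passed the filter on low counts, 4872 were higher in JJN3 (32.5%) and 5094 were lower (34.0%) at the study's limits, an adjusted p under 0.05 with a log2 fold change past 0.5 in size. These shares are the background for every list below, since 66.5% of all genes were called. The median log2 fold change over all genes was -0.03, and the median size was 0.92. Differences were often large, with 697 genes higher and 861 lower by more than 4 on the log2 scale. Among the called genes, 198 had no count in either H929 library and 296 none in either JJN3 library. Bulk counts do not separate fewer expressing cells from less RNA per cell.

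**Figure D1:**
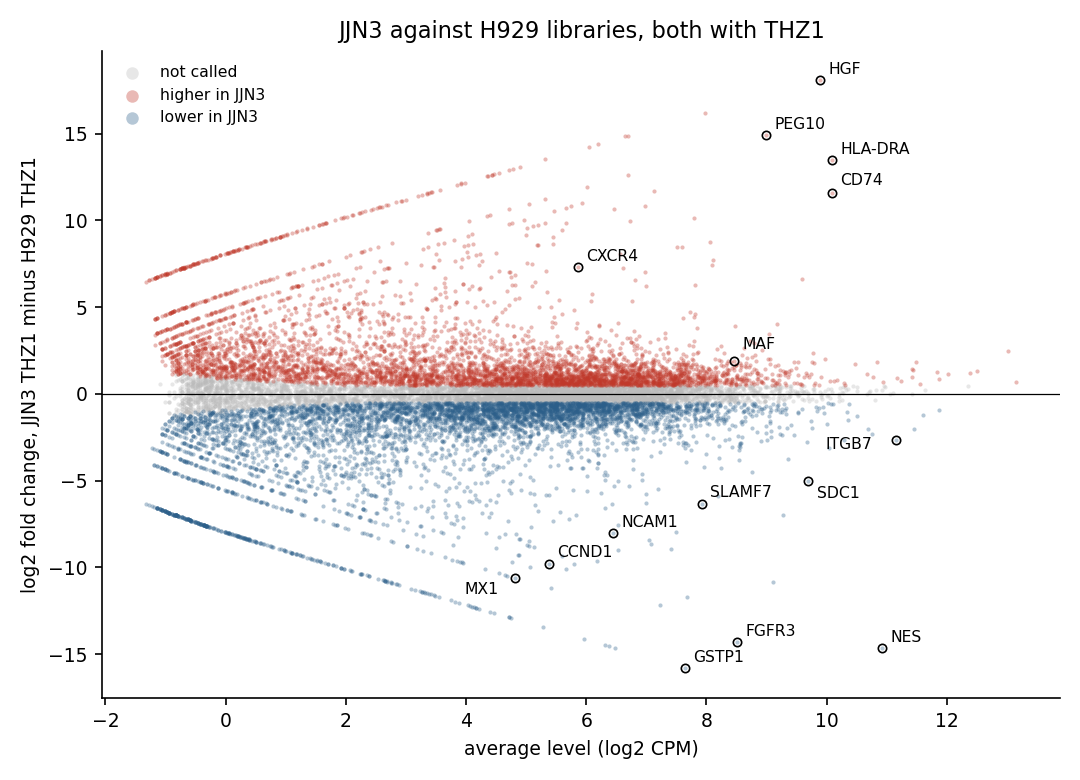
Each point is a gene, by its average level (x axis, log2 CPM) and its log2 fold change of JJN3 THZ1 over H929 THZ1 (y axis), coloured by whether it was called higher, lower or neither in JJN3. Circled genes such as HGF and HLA-DRA at the top and GSTP1, FGFR3 and NES at the bottom lie far from 0, and points on the outer curves are genes with no count in one line, whose fitted values are no bounds.

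The 12 largest differences toward JJN3 included genes of secreted and surface proteins. HGF, the ligand of the receptor MET (chr7:81328326-81399754), had 30966 and 35203 counts in JJN3 and none in H929, at least 11986-fold higher. This bound and those below set the empty libraries at 3 counts each, the limit that a count of 0 allows, and cover counting error only. SDC2, the heparan sulphate proteoglycan syndecan 2, was at least 3171-fold higher (9121 and 8295 counts against 0 and 0). PEG10, an imprinted gene of retrotransposon origin, had 17930 and 17457 counts in JJN3 and 1 and 0 in H929. At 0 in both H929 libraries were also BMP5, a bone morphogenetic protein (2569 and 2552 counts in JJN3), GJA1, the gap junction protein connexin 43 (2038 and 2573), and TGFBI, a secreted matrix protein (823 and 1028). TKTL1, a transketolase-like enzyme, was at least 1265-fold higher, and the scaffold proteins ANK3 and AKAP12 and the engulfment adaptor GULP1 by at least 505, 350 and 379-fold. MET, the receptor for HGF, was present in both lines, at 1091 and 1458 counts in JJN3 and 415 and 442 in H929 (log2 fold change 1.69 ± 0.11).

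In the other direction, NES, the intermediate filament nestin (chr1:156638555-156647199), had 75563 and 71977 counts in H929 and 5 and 0 in JJN3. GSTP1, a glutathione transferase that detoxifies electrophiles, had 7831 and 7222 counts in H929 and none in JJN3, at least 2302-fold lower in JJN3. These genes were each abundant in 1 line and at or near 0 in the other. BIN2, MYEOV and IGLL5 were likewise without a count in JJN3, with 3009 and 2940 counts of BIN2 in H929, 2392 and 2269 of MYEOV and 1523 and 1382 of IGLL5. MYEOV lies near CCND1 on chromosome 11, and IGLL5 lies within the lambda light chain locus. FAM64A, the aspartic protease NAPSA, the glypican GPC4, SLFN13 and NSG2 were also among the 12 largest differences toward H929, as was FGFR3, and the former were each at 0 in JJN3 and at least 240-fold to 306-fold lower there.

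Large MAF factors and the genes reported as their targets did not move together. Of the 13 tested, 6 were higher and 5 lower in JJN3, beside 32.5% and 34.0% of all genes, with a median log2 fold change of 0.15. That median was -0.11 without JJN3 THZ1 replicate 2, 0.46 without JJN3 THZ1 replicate 1 and 0.05 without H929 THZ1 replicate 1. MAGI2, a scaffold protein, had 958 and 1077 counts in JJN3 and 24 and 23 in H929 (log2 fold change 5.55 ± 0.14). NUAK1, an AMPK-related kinase, was also higher in JJN3 (1017 and 1194 against 569 and 582 counts, 1.06 ± 0.09), as was the small GTPase RND3 (2.10 ± 0.12). ITGB7, the integrin beta 7 chain, ran the other way, with 11194 and 10263 counts in JJN3 and 76538 and 72695 in H929 (-2.67 ± 0.12). CCR1, a chemokine receptor (-2.22 ± 0.08), and DEPTOR, an inhibitor of mTOR (-2.80 ± 0.09), were lower in JJN3 as well. MAFA, another large MAF gene, had 120 and 150 counts in JJN3 against 1 and 2, a ratio of 97.9 (95% counting interval 33.1 to 478). ST3GAL6, a sialyltransferase, was lower in JJN3 (1458 and 1695 against 22635 and 23340 counts, -3.75 ± 0.10), and the secreted peptide ADM did not pass the test (138 and 186 against 133 and 157 counts, 0.28 ± 0.17).

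Of 12 genes known from t(4;14) MM, 4 were higher and 7 lower in JJN3, with a median of -0.81. TACC3, a spindle protein next to FGFR3 (1157 and 1424 against 3146 and 2913 counts, -1.11 ± 0.09), and the secreted factor CLEC11A (0 and 1 against 60 and 48 counts) were lower in JJN3. MYRIP had no count in JJN3 and 48 and 37 in H929. The 4 that were higher in JJN3 included the adhesion molecule MCAM (407 and 343 against 13 and 25 counts, 4.42 ± 0.25), the protease inhibitor SERPINE2 (2.78 ± 0.09) and the desmosomal cadherin DSG2 (1.32 ± 0.13).

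D-type cyclins were all lower in JJN3. CCND1 (chr11:69455924-69469242) had 1 and 2 counts in JJN3 and 1540 and 1566 in H929, a ratio of 952 (95% counting interval 325 to 4618) toward H929. CCND2 had 4007 and 3799 counts in JJN3 and 8051 and 8178 in H929 (log2 fold change -0.93 ± 0.09), and CCND3 had 574 and 748 in JJN3 and 2285 and 1985 in H929 (-1.57 ± 0.10). CCND2 was thus abundant in every library, whereas CCND1 was abundant in H929 alone. MYC, the transcription factor that drives growth in MM, was higher in JJN3 (10047 and 12233 against 2577 and 2513 counts, 2.25 ± 0.09), and so were its antagonists MXD1 (2.04 ± 0.16) and MXI1 (1.62 ± 0.08) and the kinase BRAF (1.03 ± 0.08). E2F1, a cell cycle transcription factor, was lower (-1.46 ± 0.09). Over the 14 oncogenes and cyclins of this list, 7 were higher and 6 lower, with a median of 0.37.

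**Figure D2:**
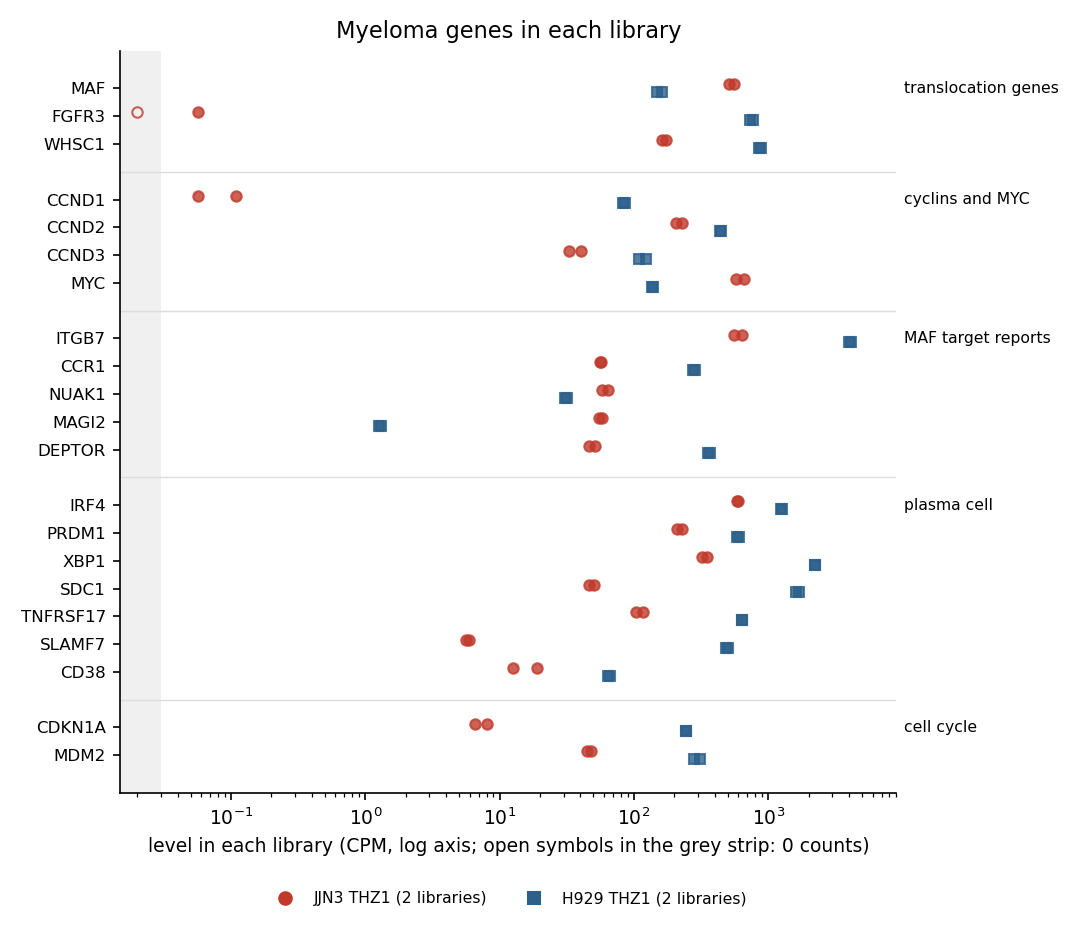
Level of 21 myeloma genes in each of the 4 libraries (x axis, CPM on a log axis), with red circles for JJN3 THZ1 and blue squares for H929 THZ1, and open symbols in the grey strip for 0 counts. The library pairs lie close together, with MAF, MYC, NUAK1 and MAGI2 higher in JJN3 and the remaining genes higher in H929.

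Most plasma cell identity genes were lower in JJN3. Of 19 tested, 2 were higher and 14 lower, with a median log2 fold change of -1.07 beside -0.03 over all genes. SLAMF7, a surface receptor and antibody target, had 99 and 109 counts in JJN3 and 8948 and 9173 in H929 (-6.32 ± 0.11). SDC1, the plasma cell marker CD138, had 812 and 927 counts in JJN3 and 31513 and 29449 in H929 (-5.01 ± 0.11). GPRC5D, an orphan receptor of plasma cells, was lower too (303 and 297 against 2739 and 2708 counts, -3.06 ± 0.09). Transcripts of these surface proteins were far lower in JJN3. TNFRSF17, the receptor BCMA, had 1819 and 2165 counts in JJN3 and 11828 and 11699 in H929 (-2.44 ± 0.09), and CD38, an ectoenzyme, had 331 and 232 in JJN3 and 1214 and 1171 in H929 (-1.95 ± 0.16). Among the transcription factors, the log2 fold change was -2.64 ± 0.10 for XBP1 and -1.34 ± 0.09 for PRDM1, and IRF4 had 10249 and 10949 counts in JJN3 and 23269 and 22981 in H929. The 2 members higher in JJN3 were FCRL5, an Fc receptor-like protein with low counts (29 and 34 against 10 and 7), and ELL2, an elongation factor for immunoglobulin transcripts (0.58 ± 0.09). ELL2 fell short of the limit on the fold change without JJN3 THZ1 replicate 1 (0.48).

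B-cell genes gave no list-wide direction. Of 25 listed, 7 had at most 3 counts in all 4 libraries, 12 passed the filter, and 6 were higher and 5 lower. CD22 and CD24 were among the 3 with no count. Higher in JJN3 were SPIB (87 and 108 against 6 and 3 counts), BCL11A (187 and 240 against 14 and 29) and BCL6 (346 and 319 against 40 and 42), transcription factors of earlier B-cell stages. CD79B, a chain of the B-cell receptor (-2.11 ± 0.14), the E protein TCF3 (-1.99 ± 0.09) and its inhibitor ID3 (-3.56 ± 0.13) were lower. The median of 0.64 came down to -0.083 without H929 THZ1 replicate 2, to 0.22 without JJN3 THZ1 replicate 1 and to -0.032 without JJN3 THZ1 replicate 2, and it was -0.64 with DESeq2.

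Immunoglobulin constant genes differed between the lines in both directions, and no heavy chain class is read from them for H929. IGHG1 had 3225 and 3992 counts in JJN3 and none in H929, at least 1305-fold higher. IGHA1 had 25 and 26 counts in JJN3 and 174 and 199 in H929 (-2.74 ± 0.22). IGJ, the joining chain of polymeric antibodies, was abundant in both (43948 and 45116 counts in JJN3 and 92911 and 94256 in H929, -0.95 ± 0.11). The list also holds IGJ, which is not a constant gene, and of its 10 genes tested 6 were higher and 4 lower. Constant genes of a class are near copies, and reads mapping to more than 1 place were left out, so their levels are uncertain. IGKC shares its position with another annotated gene and had only 58 and 29 counts in JJN3 and 8 and 12 in H929, although kappa V genes had 7364 and 9176 counts in JJN3 and 31511 and 29325 in H929. In both lines IGKV3-15 led, with 99.1% and 99.0% of light chain V counts in JJN3 and 61.5% and 63.2% in H929, where IGKV3-7 followed with 22.0% and 20.1%.

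MHC class II genes had the largest median difference toward JJN3 of the lists with more than 10 members tested. The class II molecules display peptides from outside the cell, CD74 is their invariant chain, and CIITA is the coactivator that the RFX complex recruits to their promoters. Their promoters are known for a Y box, searched here as CTGATTGG on either strand. The class II list of 16 genes includes the RFX subunits. Of these 16, 14 had a promoter in the RefSeq table (GRCh38.p14, 250 bases before to 50 after the start). The motif was in 5 of the 14, among them the promoter of RFX5, beside 4.16% of 27305 promoters. The 2 stretches of 100 bases below, read along the gene, show it in capitals in genes that were called higher in JJN3.
HLA-DMA (chr6:32953126-32953225, minus strand): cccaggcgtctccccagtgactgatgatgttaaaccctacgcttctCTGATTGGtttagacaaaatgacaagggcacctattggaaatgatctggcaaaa
HLA-DQB1 (chr6:32666695-32666794, minus strand): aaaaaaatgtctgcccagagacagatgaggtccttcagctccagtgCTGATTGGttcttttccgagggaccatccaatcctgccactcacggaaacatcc

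Of the 16 genes of the class II list, all tested, 13 were higher and 1 lower in JJN3. The median log2 fold change was 6.62, or 5.65 with genes at 3 counts or fewer in H929 held at their bound. HLA-DRA had 34608 and 41711 counts in JJN3 and 4 and 3 in H929 (13.48 ± 0.20). CD74 had 35605 and 40128 counts in JJN3 and 3 and 24 in H929 (11.56 ± 0.29). CIITA had 322 and 374 counts in JJN3 and 12 and 13 in H929 (4.90 ± 0.21). The chain genes and the coactivator were thus close to 0 in H929 and abundant or moderate in JJN3. HLA-DQB1 (4100 and 4716 against 70 and 61 counts, 6.19 ± 0.11) and HLA-DMA, which loads peptides (1239 and 1680 against 55 and 44, 4.99 ± 0.16), are the genes of the promoters shown. HLA-DRB1, HLA-DPB1 and HLA-DQA1 were higher in JJN3 as well, though reads shared between close class II paralogs leave the split among them uncertain. The RFX subunits differed less, since RFX5 (-0.14 ± 0.07) and RFXANK (0.06 ± 0.10) missed the test and RFXAP differed by 0.61 ± 0.15. HLA-DOB, an inhibitor of loading, was the single member lower in JJN3 at low counts (13 and 11 against 22 and 29), and its call was lost without any 1 of the 4 libraries.

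MHC class I genes, which display peptides from inside the cell, were split. Of 20 tested, 5 were higher and 6 lower, with a median of -0.01 (-0.13 without JJN3 THZ1 replicate 1 and 0.071 without JJN3 THZ1 replicate 2). HLA-B (2.12 ± 0.09) and the light chain B2M (1.83 ± 0.12) were higher in JJN3. HLA-E (-1.79 ± 0.09), the trimming peptidase ERAP2 (-2.98 ± 0.10) and the immunoproteasome subunits PSMB8, PSMB9 and PSMB10 (-0.97, -1.02 and -1.70) were lower.

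Interferon-stimulated genes were split, with 42.9% of those tested higher and 45.7% lower in JJN3, beside 32.5% and 34.0% of all genes. Interferons act through a complex with IRF9 on the interferon-stimulated response element, whose core was searched here on either strand as GAAA, then 2 bases of any kind, then GAAA. The core was found in 20 of the 29 listed genes with a promoter in the RefSeq table (GRCh38.p14), beside 3.65% of all promoters. It occurred on both sides of the split, in 9 of 11 genes higher in JJN3 and in 6 of 11 lower. The stretches below show it in capitals for CXCL10 and GBP1, higher in JJN3, and for IFIT1 and ISG15, lower in JJN3, where neighbouring or overlapping copies are all in capitals.
CXCL10 (chr4:76023648-76023747, minus strand): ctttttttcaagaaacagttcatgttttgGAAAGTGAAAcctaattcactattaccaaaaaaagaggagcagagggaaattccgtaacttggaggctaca
GBP1 (chr1:89065281-89065380, minus strand): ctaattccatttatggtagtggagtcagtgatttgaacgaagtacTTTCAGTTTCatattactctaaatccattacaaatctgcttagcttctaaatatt
IFIT1 (chr10:89392475-89392574, plus strand): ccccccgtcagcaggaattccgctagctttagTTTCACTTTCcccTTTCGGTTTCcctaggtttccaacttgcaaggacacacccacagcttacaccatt
ISG15 (chr1:1013345-1013444, plus strand): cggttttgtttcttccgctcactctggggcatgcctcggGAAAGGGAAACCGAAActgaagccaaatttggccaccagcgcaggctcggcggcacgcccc

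Of 35 interferon-stimulated genes tested, 15 were higher and 16 lower in JJN3, with a median of -0.49 (-0.31 without H929 THZ1 replicate 1). MX1, a GTPase that blocks viruses, had 1 and 0 counts in JJN3 and 1109 and 977 in H929, a ratio of 1918 (95% counting interval 344 to 75780) toward H929. OAS1, which makes the activator of RNase L, had 2 and 4 counts in JJN3 and 942 and 910 in H929 (-8.09 ± 0.22). Its relative OAS2 had 9 and 3 counts in JJN3 and 3505 and 3426 in H929 (-9.02 ± 0.18). These antiviral genes were near 0 in JJN3. ISG15, a ubiquitin-like modifier (-1.57 ± 0.19), and IFIT1, which binds viral RNA (-3.84 ± 0.46), were lower in JJN3 at modest counts. GBP1, a guanylate-binding protein, had 96 and 108 counts in JJN3 and none in H929. CXCL10, a chemokine, had 65 and 35 counts in JJN3 and none in H929, at least 18.4-fold higher. The poly-ADP-ribose polymerases PARP9 (444 and 516 against 13 and 16 counts, 5.16 ± 0.19) and PARP14 (1097 and 1401 against 209 and 222, 2.65 ± 0.11) were higher in JJN3 too. GBP2 and IFITM2 were also on this side (4.45 ± 0.37 and 5.69 ± 0.39). In H929, MX1, OAS1 and OAS2 were thus abundant and GBP1 and CXCL10 absent, while the reverse held in JJN3 at lower counts. These genes do not stand for the whole list, whose members were split about evenly.

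**Figure D3:**
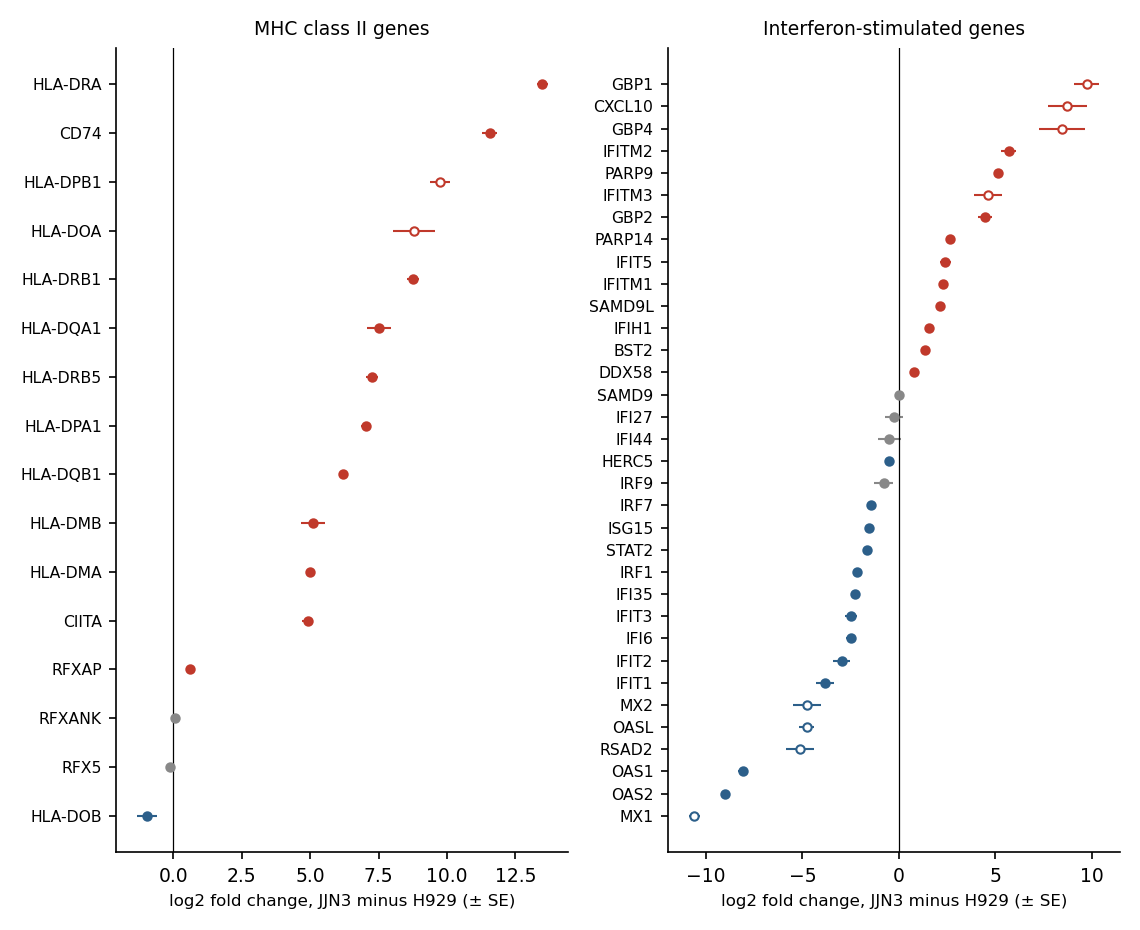
Log2 fold change of JJN3 THZ1 over H929 THZ1 (x axis, ± SE) for 16 MHC class II genes and 34 of the 35 interferon-stimulated genes, in red where called higher, blue where lower and grey where not called, with open symbols where 1 line had 3 counts or fewer in each library. HLA-DRA and CD74 lead the class II genes, whereas the interferon genes run from GBP1 and CXCL10 on the right to MX1 and OAS2 on the left.

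Cell cycle inhibitors and RB family genes were split, and of 15 tested 6 were higher and 4 lower in JJN3, with a median of 0.15. CDKN1A, the inhibitor p21, had 114 and 148 counts in JJN3 and 4469 and 4469 in H929 (-4.97 ± 0.10). MDM2, a ubiquitin ligase, had 789 and 888 counts in JJN3 and 5198 and 5689 in H929 (-2.58 ± 0.09). CDKN1C, the inhibitor p57 (710 and 811 against 44 and 32 counts, 4.44 ± 0.16), CDKN2A (1.29 ± 0.13) and CDKN2B (1.98 ± 0.19) were higher in JJN3.

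The BCL2 family, which sets the threshold for apoptosis, leaned to H929. Of 17 tested, 2 were higher and 10 lower, with a median of -0.60. The 2 higher in JJN3 were BCL2 itself (2247 and 2743 against 587 and 602 counts, 2.19 ± 0.09) and its antagonist BCL2L11, known as BIM (4366 and 4564 against 788 and 819, 2.60 ± 0.08). The effectors BAX (-1.85 ± 0.09) and BAK1 (-1.96 ± 0.09) and the survival genes BCL2L1 (-0.78 ± 0.08) and MCL1 (14020 and 15668 against 23977 and 25040, -0.60 ± 0.09) were lower.

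Feedback and immediate targets of the MAPK pathway were lower in JJN3 as a list, 16 of 21 against 4 higher, with a median of -1.18. SPRY4, an inhibitor of receptor signalling, had no count in JJN3 and 268 and 251 in H929. DUSP6, the phosphatase of ERK, had 145 and 189 counts in JJN3 and 4321 and 4491 in H929 (-4.60 ± 0.10). The ETS factor ETV5 had 24 and 25 counts against 1534 and 1536 (-5.84 ± 0.13), and ETV4 was similarly placed (-5.68 ± 0.16). The members higher in JJN3 were the immediate early factors JUN (2.62 ± 0.14) and FOS (1.48 ± 0.25), PHLDA1 (1.09 ± 0.15) and MYC.

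Of 25 NF-kB pathway genes tested, 12 were higher and 7 lower in JJN3, with a median of 0.42 (0.23 with DESeq2). A kappa B site, searched on either strand as GGGGA followed directly by TTTCC, was in 3 of 26 listed promoters, those of BIRC3, TNFAIP3 and TRAF3, beside 0.0989% of all promoters. The stretches below (GRCh38.p14) show it in capitals in BIRC3, an inhibitor of apoptosis, and in TNFAIP3, the deubiquitinase A20 that ends NF-kB signals.
BIRC3 (chr11:102317240-102317339, plus strand): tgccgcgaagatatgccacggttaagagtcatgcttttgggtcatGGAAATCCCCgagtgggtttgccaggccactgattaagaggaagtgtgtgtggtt
TNFAIP3 (chr6:137867159-137867258, plus strand): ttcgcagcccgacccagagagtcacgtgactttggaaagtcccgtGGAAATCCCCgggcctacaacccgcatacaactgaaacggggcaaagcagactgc

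BIRC3 had 3226 and 4607 counts in JJN3 and 51 and 40 in H929 (6.54 ± 0.17), and TNFAIP3 had 2725 and 2986 in JJN3 and 456 and 527 in H929 (2.66 ± 0.09). TRAF3, which holds the alternative pathway in check, was higher in JJN3 as well (1646 and 2039 against 561 and 484, 1.94 ± 0.10). NFKBIZ, a nuclear IkB protein, differed by 3.56 ± 0.21. Lower in JJN3 were the chemokine CCL3 (4 and 2 against 228 and 219 counts, -6.04 ± 0.32), the subunits REL (-1.30 ± 0.13) and RELB (-0.92 ± 0.13) and the adaptor TRAF2 (-1.09 ± 0.15). IL2RG, the common cytokine receptor chain that is also a myeloma NF-kB index gene, had 10146 and 8892 counts in JJN3 and 40 and 59 in H929 (7.71 ± 0.18).

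Receptors for cytokines and growth factors differed in both directions, 13 of 38 higher and 20 lower in JJN3, with a median of -0.68 that came to -0.046 with DESeq2 and -0.075 with no filter. The chains of the receptor for IL-6, a growth factor of MM, ran in opposite directions. IL6R, the binding chain, had 196 and 144 counts in JJN3 and 23168 and 23166 in H929 (-6.96 ± 0.16). IL6ST, the signalling chain gp130, had 12981 and 10676 in JJN3 and 1932 and 2186 in H929 (2.65 ± 0.13). NOTCH2 was higher in JJN3 (11745 and 11466 against 820 and 885 counts, 3.89 ± 0.10), and the TNF receptor TNFRSF1A was all but absent there (1 and 1 against 232 and 234).

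Adhesion and homing receptors, which place MM cells in the bone marrow, also split, 14 of 35 higher and 18 lower, with a median of -0.91 (-0.55 without JJN3 THZ1 replicate 2). CXCR4, the receptor for the marrow chemokine CXCL12, had 1933 and 2127 counts in JJN3 and 12 and 16 in H929 (7.29 ± 0.14). S1PR1, which guides exit from tissues, had 1153 and 1113 counts in JJN3 against 1 and 2, a ratio of 822 (95% counting interval 281 to 3987). CDH1, the epithelial cadherin, was on the same side (447 and 312 against 1 and 4, 7.31 ± 0.42). NCAM1, the myeloma marker CD56, had 13 and 10 counts in JJN3 and 3246 and 3292 in H929 (-8.01 ± 0.14). ITGA8, an integrin alpha chain, had 187 and 149 in JJN3 and 10534 and 11146 in H929 (-5.89 ± 0.13), and CXCR3, a chemokine receptor, had no count in JJN3 and 214 and 232 in H929.

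Genes of the unfolded protein response and of folding in the endoplasmic reticulum (ER) were lower in JJN3, 23 of 33 against 2 higher, with a median of -0.89. The ER stress element, searched on either strand as CCAAT and CCACG with 9 bases of any kind between them, was in 4 of 31 listed promoters, beside 0.0806% of all promoters. It is shown in capitals (GRCh38.p14) for XBP1, lower in JJN3, and for HSP90B1, an ER chaperone that was higher.
XBP1 (chr22:28800570-28800669, minus strand): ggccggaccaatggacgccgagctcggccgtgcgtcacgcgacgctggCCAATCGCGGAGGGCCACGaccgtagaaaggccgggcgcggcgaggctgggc
HSP90B1 (chr12:103930280-103930379, plus strand): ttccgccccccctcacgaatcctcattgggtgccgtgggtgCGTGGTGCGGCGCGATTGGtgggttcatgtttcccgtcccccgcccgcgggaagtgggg

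XBP1, the transcription factor of this response and of secretory cells, had 5594 and 6465 counts in JJN3 and 41063 and 40599 in H929 (-2.64 ± 0.10). The ER stress sensors EIF2AK3, known as PERK (476 and 555 against 10932 and 10861 counts, -4.28 ± 0.09), and ERN1, known as IRE1 (538 and 679 against 3942 and 4005, -2.59 ± 0.09), were lower in JJN3. SDF2L1 (-2.88 ± 0.14) and the mannosidase-like EDEM3 (-2.64 ± 0.09), which act in folding and disposal, followed. The 2 higher members were HSP90B1 (55387 and 48665 against 30236 and 30722, 0.90 ± 0.12) and the disulphide isomerase PDIA6 (1.34 ± 0.10).

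The target of the inhibitor and the machinery around it gave no list-wide direction. Of 24 TFIIH and transcription kinase genes tested, 7 were higher and 6 lower, and 11 were not called. Their median was 0.03 (-0.12 with DESeq2). CDK7 had 297 and 358 counts in JJN3 and 212 and 201 in H929 (0.78 ± 0.13). POLR2A, the large subunit of RNA polymerase II, had 7305 and 7966 in JJN3 and 14952 and 14941 in H929 (-0.85 ± 0.08). CDK9, the kinase of P-TEFb, was lower in JJN3 (433 and 432 against 1714 and 1525, -1.78 ± 0.10). Of 6 multidrug transporters tested, 2 were higher and 1 lower. ABCB1, an efflux pump, had 86 and 104 counts in JJN3 and 1 and 0 in H929, a ratio of 207 (95% counting interval 36.7 to 8206), and ABCC1 was also higher in JJN3 (2190 and 2521 against 571 and 682, 2.03 ± 0.10).

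HOX genes encode homeodomain factors of body patterning and blood progenitors, and 28 of the 39 listed had at most 3 counts in all 4 libraries. Those that passed the filter did so through H929, so no direction is read from their number. HOXB13 had no count in JJN3 and 91 and 110 in H929, at least 30.7-fold lower in JJN3, and HOXB7 had 14 and 14 counts in JJN3 and 535 and 527 in H929 (-5.11 ± 0.18). Among 19 cancer-testis antigens, germline genes re-expressed in tumours, 8 were higher and 7 lower, with a median of 0.11. That median was 0.23 without H929 THZ1 replicate 1, 0.25 without JJN3 THZ1 replicate 1, -0.067 without JJN3 THZ1 replicate 2 and -0.12 with DESeq2. MAGEA4 (29 and 43 against 3318 and 3074 counts, -6.35 ± 0.13), MAGEA1 (-5.74 ± 0.13) and SSX1 (-5.29 ± 0.16) stood on the H929 side. MAGEC2 (92 and 108 against 1 and 1 counts), DDX43 (4.14 ± 0.27) and SAGE1 (2.39 ± 0.13) stood on the JJN3 side.

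Metabolic and housekeeping lists had medians from -0.17 to 0.07 with all 4 libraries. Glycolysis enzymes gave 5 higher and 6 lower of 18 (median -0.17), with GAPDH higher in JJN3 (72327 and 65480 against 29024 and 27193 counts, 1.42 ± 0.12) and the phosphofructokinase PFKP lower (-2.35 ± 0.13). Cholesterol synthesis genes gave 6 and 9 of 22 (median 0.04, -0.003 without H929 THZ1 replicate 2 and -0.026 without JJN3 THZ1 replicate 2), with HMGCS1 (2.31 ± 0.09) and SQLE (2.00 ± 0.09) higher. Ribosomal protein genes gave 18 and 12 of 76 (median -0.05), and many have near-identical pseudogenes. Without JJN3 THZ1 replicate 1 they gave 11 higher and 18 lower (median -0.20), and the median was -0.11 without H929 THZ1 replicate 2 and 0.099 without JJN3 THZ1 replicate 2. Proteasome subunits gave 4 and 7 of 31 (median 0.07), with 11 lower and a median of 0.03 without H929 THZ1 replicate 2. With all 4 libraries, the called shares of the last 2 lists were below the background of all genes in each direction. The study chose 24 candidate genes on superenhancers, large clusters of enhancers, found in primary MM cases and not in its controls. It also chose them on their response to THZ1 in these lines. Among the 24, 10 were higher and 6 lower (median 0.20, 0.11 without H929 THZ1 replicate 1 or without JJN3 THZ1 replicate 2). The choice on THZ1 response makes their direction no independent evidence. Beside MAGI2, FOXP2 (683 and 837 against 108 and 127 counts, 2.81 ± 0.13) and the topoisomerase TOP2B (1.59 ± 0.08) were higher in JJN3, and the replication factor CDC6 was lower (-1.25 ± 0.08).

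**Figure D4:**
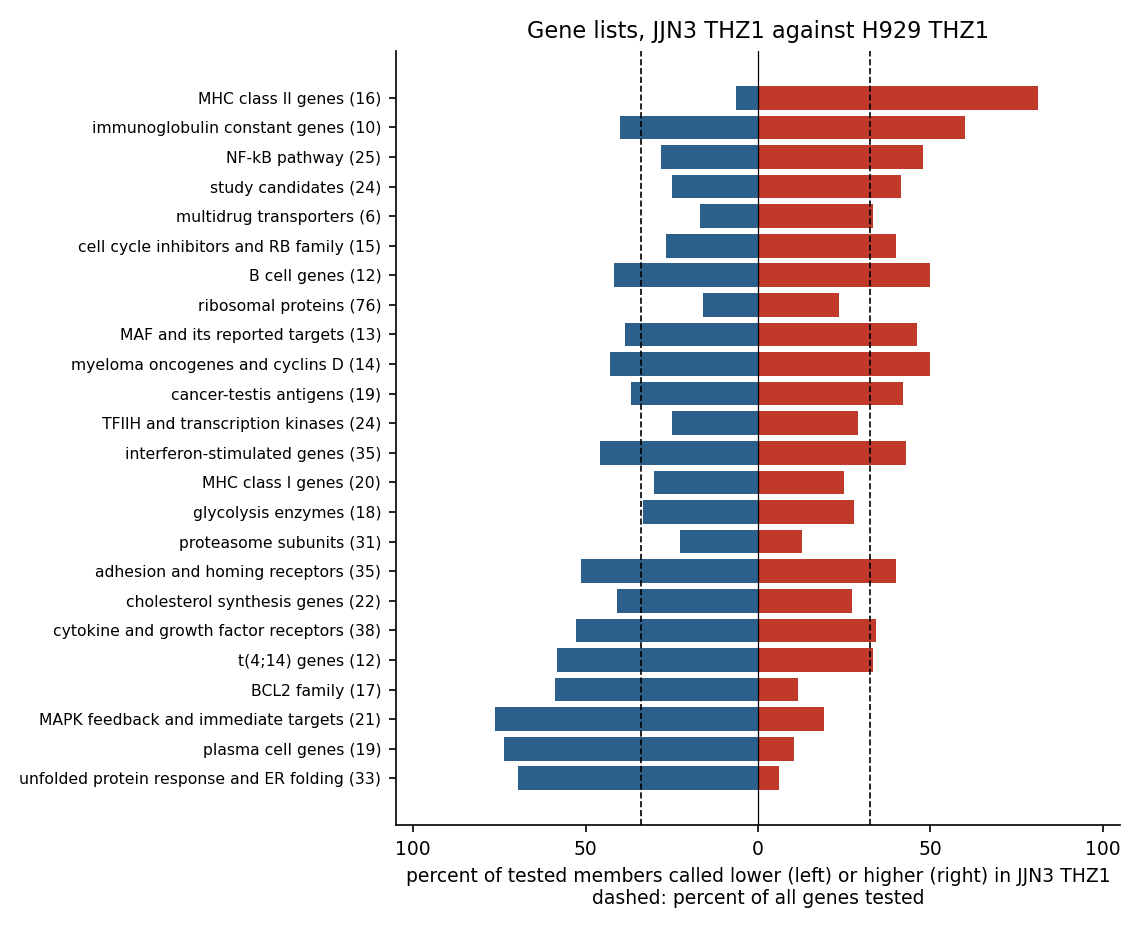
Percent of the tested members of 24 gene lists (number tested in brackets) that were called lower (blue, to the left) or higher (red, to the right) in JJN3 THZ1 than in H929 THZ1. Dashed lines mark the shares over all genes, 34.0% lower and 32.5% higher, and MHC class II genes stand at the top while ER folding, plasma cell and MAPK genes stand at the bottom.

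Some genes that were silent in 1 line lay side by side. Runs of 3 or more neighbouring protein-coding genes were sought with at most 3 counts in each library of 1 line and at least 1 CPM in each of the other, which 387 genes met for JJN3 and 282 for H929. JJN3 was silent in 4 runs. On chr17:33677324-33775856 (GRCh37) these were the Schlafen genes SLFN11, SLFN12 and SLFN13, with 541 and 586 counts of SLFN11 in H929, 234 and 209 of SLFN12 and 791 and 844 of SLFN13. SLFN11 acts in the response to stalled replication forks. On chr21:42539728-42841998 they were BACE2, FAM3B, MX2 and MX1, on chr19:2867333-3047633 ZNF556, ZNF57, ZNF77, TLE6 and TLE2, and on chrX:17393323-17879457 NHS, SCML1 and RAI2. H929 was silent in 5 runs. The largest counts in JJN3 were those of MGST1, a microsomal glutathione transferase (5303 and 4358), which with LMO3, RERGL and PIK3C2G made up chr12:16500076-18801350. CD69, KLRF1 and CLEC2B, lectin-like genes of the natural killer complex, made up chr12:9905082-10021985, with 1891 and 2397 counts of CLEC2B in JJN3. The others were S1PR1, OLFM3 and COL11A1 on chr1:101702421-103574428, ZIC4, ZIC1 and AGTR1 on chr3:147103833-148460795, and HMGCLL1, BMP5 and COL21A1 on chr6:55299171-56258892.

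Levels also differed by chromosome. The median log2 fold change was 0.69 over 233 genes of chromosome 18 and 0.62 over 742 genes of chromosome 7, where 51.6% of genes were higher in JJN3 and 21.7% lower. Chromosomes 13 and 14 had medians of 0.51 and 0.50. The lowest medians were -0.59 over 512 genes of chromosome X, -0.48 over 583 of chromosome 9 and -0.43 over 812 of chromosome 17, where 17.5% were higher and 45.3% lower. Quartiles within a chromosome spanned more than the distance between these medians.

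**Figure D5:**
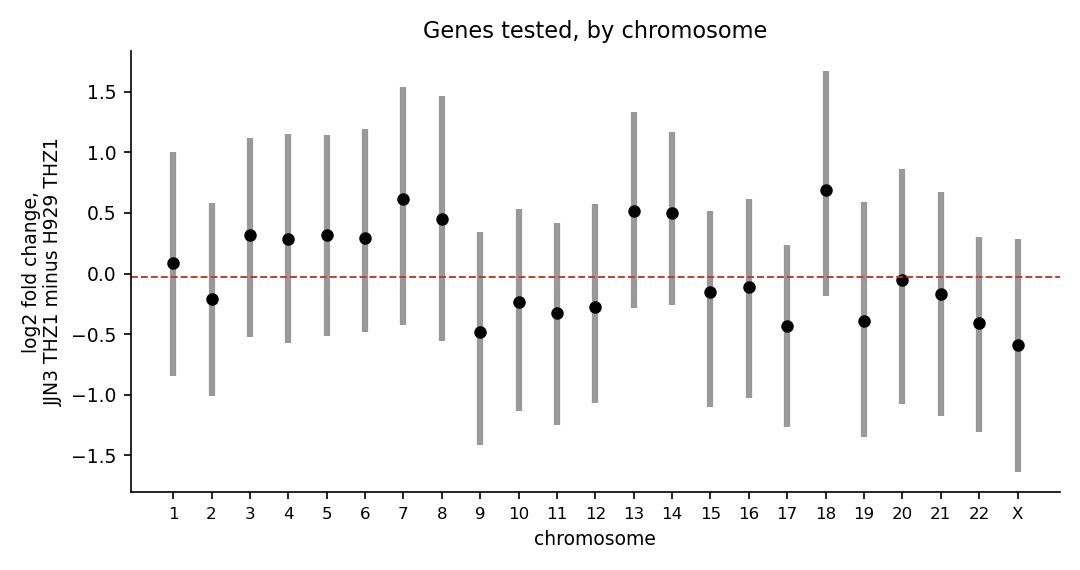
Log2 fold change of JJN3 THZ1 over H929 THZ1 for the genes tested on each chromosome, with the median as a point and the quartiles as a bar. The dashed line is the median over all genes, -0.03, and chromosomes 18 and 7 lie above it and chromosomes X and 9 below it.

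The JJN3 libraries with THZ1 were also set beside JJN3 DMSO, a comparison that shares the JJN3 THZ1 libraries with the one above, so values are given side by side only. Of 13984 genes tested, 2877 were higher with THZ1 (20.6%) and 2972 lower (21.3%). For MAF, the DMSO libraries had 16305 and 16840 counts and the log2 fold change of THZ1 over DMSO was -0.59 ± 0.09, so JJN3 stood above H929 in MAF after a decrease of its own. MYC changed from 22083 and 22167 counts by -0.80 ± 0.10 on that scale, and MAGI2 from 1788 and 1802 by -0.63 ± 0.08. Each of these genes was lower with THZ1 and still higher than in H929. CCND2 (-1.07 ± 0.09), IRF4 (-0.55 ± 0.09), XBP1 (-0.61 ± 0.09), TNFRSF17 (-0.64 ± 0.09) and SLAMF7 (-1.65 ± 0.14) were lower with THZ1 and lower than in H929. Over the plasma cell list, 8 of 19 were lower with THZ1 and 1 higher, and the MAF list gave 6 of 13 lower and 2 higher. Of the MHC class II genes, 5 of 16 were lower and 3 higher, and of the proteasome subunits 9 of 31 were lower.

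Some of the largest line differences moved little with THZ1 in JJN3. HGF had 28671 and 28517 counts with DMSO (0.40 ± 0.10, not called), HLA-DRA had 33846 and 37865 (0.28 ± 0.12, not called) and SDC2 had 9694 and 10207 (0.01 ± 0.10, not called). PEG10, also among the largest, rose from 7107 and 6924 counts with DMSO by 1.53 ± 0.10 on the log2 scale. In JJN3 without the inhibitor, GSTP1 had no count either, and FGFR3 had 2 and 1. With THZ1, CIITA fell from 1213 and 1220 counts (-1.61 ± 0.09) and CXCL10 from 1003 and 1106 (-4.20 ± 0.20), yet each stayed above H929. ITGB7 rose in JJN3 with THZ1 (6592 and 7503 counts with DMSO, 0.81 ± 0.11) and stayed below H929, and POLR2A did the same (1819 and 1675, 2.32 ± 0.09). ABCB1 rose from 15 and 18 counts (2.71 ± 0.27).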

How the data were processed

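RNA of JJN3 and H929 cells with THZ1 or DMSO was sequenced in 8 libraries. Per the labels and the methods of the study, the authors aligned reads to hg19 with STAR 2.5.2a, kept uniquely mapping reads and deposited a raw count for each of 63677 Ensembl genes from featureCounts, without normalization. The strand setting is not given in the sources used here, so overlapping and antisense genes cannot be told apart. Normalized values and comparisons from the authors' DESeq2 1.12.4 runs were not used, beyond the gene symbols listed there.

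The 2 count tables were joined on gene identifiers. JJN3 THZ1 was compared with H929 THZ1, and with JJN3 DMSO, by edgeR 4.0.16 in R 4.3.3 (TMM, filterByExpr, quasi-likelihood test, Benjamini-Hochberg). CPM scale counts to a library's total. Intervals are exact binomial at 95%, and 3 counts stand for a library at 0. DESeq2 1.42.0, other scalings and filters, all 8 libraries, a replicate block and leaving out libraries were alternatives. edgeR was tested on simulated data with known changes in far fewer genes than were called here, so that test does not cover a difference of this extent. Equal replicate numbers did not deviate together (correlation -0.002), so they pair no samples, and replicates differed by more than sampling noise (chi-square per degree of freedom 11.1 and 4.79).

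The libraries, the 25 gene lists and the 4 marker lists were chosen with earlier results of these data known. Named genes were the 12 largest called differences in each direction at an average log2 CPM of 3 or more, leaving out immunoglobulin V, D and J segments, a set of myeloma and study genes, up to 5 called members per direction of each list at an average log2 CPM of 1 or more, and the runs. Further genes named for their role, sequence or low counts (CIITA, the RFX genes, HLA-DMA, HLA-DQB1, HLA-DOB, FCRL5, ISG15, IFIT1, TRAF3, MYRIP, B-cell genes at 0 and the markers) were chosen after their values were seen. Some genes and 1 further list are not reported here. Medians are given for lists with more than 10 members tested. Gene positions are GENCODE 44 lifted to GRCh37.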

Additional observations from a re-analysis of the deposited data

Results flagged for a closer look

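The library labelled H929 DMSO replicate 2, which enters neither comparison, held a small amount of the H929 THZ1 signal. Of 6 genes with at least 1000 counts in both H929 THZ1 libraries and at most 3 counts in every JJN3 library and in H929 DMSO replicate 1, all 6 had more than 3 counts in it, at a median of 1.89% of their H929 THZ1 level (1.72% to 2.36%). Of its counts on light chain V genes, 2.04% fell on kappa genes, beside 0.00963% in H929 DMSO replicate 1. The cause was not tested.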

How the results depend on the processing

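Of 259 genes named by rule, 247 kept their side of the limits and their direction under every alternative, and no called gene among them reversed, but list medians did. With DESeq2, 4492 genes were higher and 4846 lower. Past a log2 fold change of 2, 1623 were higher and 1832 lower. Another scaling moved the median of all genes from -0.03 to -0.12 at most (total counts, 4506 higher and 5479 lower).

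Medians of lists split between the lines moved most. For MAF targets the median was 0.34 with DESeq2, 0.33 with no filter and 0.39 with all 8 libraries, for B-cell genes -0.64, -0.64 and -0.12, and for receptors -0.046, -0.075 and -0.50. With DESeq2 and with no filter it was 0.23 and 0.22 for NF-kB, -0.12 and -0.13 for TFIIH (-0.065 with total counts) and -0.12 and -0.14 for cancer-testis antigens. More or fewer low genes enter in the settings with no filter or 1 CPM, where adhesion gave -0.59 and interferon genes -0.26 with 1 CPM. With total counts, 1 plasma cell gene and 2 proteasome genes were higher. With all 8 libraries or no filter, 1 HOX gene was higher, and with DESeq2 or no filter, 0 MHC class II genes were lower. Beyond the filters, the cause was not tested.

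Without 1 library, the medians of interferon, cancer-testis, ribosomal and candidate genes moved too, as given above. Leaving out 1 library gave medians of -0.11 to 0.46 for MAF targets, -1.24 to -1.05 for plasma cell, -0.083 to 0.71 for B-cell, -0.99 to -0.55 for adhesion and -1.22 to -0.93 for MAPK genes. It left 1 to 2 plasma cell (higher), 0 MHC class II (lower), 11 to 20 ribosomal (higher) and 6 to 11 proteasome (lower) calls.

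Replicate numbers pair no samples. With the replicate number as a block, 4833 genes were higher and 5077 lower, 0 MHC class II genes were lower, and all 259 of these genes kept their call.

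With 2 libraries per line, the floor of 3 counts stood for 0.156 to 0.172 CPM, and differences under it were not detectable.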
